A study of Drosophila melanogaster with 9 samples.

Results

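Replication of a chromosome begins at origins, where the origin recognition complex and the MCM helicase are loaded onto DNA and 2 forks then leave in opposite directions. The leading strand made first is short and begins with an RNA primer, and that primer protects it from lambda exonuclease, so purified short nascent strands mark the places where replication has just begun. Animal cells have far more potential origins than they use in one S phase, and which ones are used is known to vary between cell types.

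The origins described here were called in Drosophila melanogaster S2 cells, were found again in at least 2 of 3 separate size fractions of S2 nascent strands, and did not overlap any origin called in a second cell line, Bg3. There were 988 of them, out of 7268 origins in the S2 list. The rule kept S2 origins narrower than 4000 bp on the 4 large autosomal arms 2L, 2R, 3L and 3R, without the stretch of 2L that starts at 21000000 and the stretch of 3L that starts at 22500000. It left 5308 S2 origins. Positions are those of genome build dm3 as deposited, and a start may be off by 1 base. Overlap meant at least 1 shared base. The members were thus chosen from the same calls that are described below, and no comparison with Bg3 or count of fractions tests their choice.

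S2-DRSC cells descend from fly embryos and resemble blood cells, while the second line, ML-DmBG3-c2, was derived from larval neural tissue. The labels give no treatment for either, and name a different medium for each, with serum in both and insulin in that of Bg3. Strands of 0.5 to 2.5 kb were taken from a gradient, pooled, and sequenced from 2 replicates per line, and the gradient fractions 4 (short strands), 5 (middle-sized) and 6 (long) of S2 cells were sequenced on their own with 2 libraries each. The 9 samples are represented by 5 origin lists, in which replicates had been combined, so each value below is 1 value with no spread between cultures. Bg3 was not separated into fractions, and being absent from the Bg3 list does not show that a site is silent in Bg3 cells.

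The lists held 8212 Bg3 origins and 4505, 6448 and 5814 regions in fractions 4, 5 and 6. The S2 list gives an efficiency for each origin, called strength here, in reads per kb of the origin. In S2 the product of strength and width was a whole number of reads (to within 0.001) at 100% of origins, so each value can be given with an exact 95% Poisson interval. Intervals for medians come from order statistics and intervals for shares are exact binomial (Clopper-Pearson) at 95%. The Poisson intervals cover the counting error of reads only. Those for medians and shares treat the origins of 1 list as a random sample. All of them treat origins or reads as independent, which reads without molecular identifiers are not, and leave out differences between cultures. No test was run, since each group of samples is represented by 1 list.

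Of the 5308 S2 origins, 2109 (39.7%) were in at least 2 fractions and 3148 (59.3%) were absent from Bg3. Of the 2109 supported by the fractions, 988 were absent from Bg3, which is 46.8% (interval 44.7 to 49.0). The other 1121 were found in both lines and are called shared origins here. Of the 3148 S2-only origins, the 988 members made up 31.4% (29.8 to 33.0), below the 39.7% of all 5308 that were in at least 2 fractions. Another 394 of the 3148 were in exactly 1 fraction, beside 736 of all 5308 (13.9%), and 1766 were in no fraction.

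The S2-only fraction-supported origins were of intermediate strength. Their median was 1721 reads per kb (1688 to 1769), with the middle 50% between 1473 and 2120, the weakest at 919 and the strongest at 12001. Shared origins had a median of 1891 (1851 to 1931), and S2-only origins in no fraction had 1411 (1397 to 1420). The median of the members was therefore 0.910 times that of shared origins and 1.22 times that of S2-only origins in no fraction, and the 3 intervals did not overlap. The 2 S2-only parts were set apart by the number of fractions that held them. Strength may thus be part of what the rule selects, and the ratio of 1.22 is no separate test of it. Among origins in all 3 fractions, however, the ratio of members to shared origins was 0.965. The intervals of these 2 medians overlap (1852 to 1956 for members and 1930.5 to 2025 for shared origins). The ratio's interval built from them, 0.915 to 1.01, is wider than a 95% interval and includes 1. S2-only origins in exactly 1 fraction, just outside the rule, had a median of 1494 (1473 to 1521). The median origin held 1211 reads, for which counting error is about 5.79% either way, much less than the range among members.

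Width followed the same order. The members had a median width of 680.5 bp (656 to 706), shared origins 799 bp (775 to 835), and S2-only origins in no fraction 462 bp (449 to 475). Among the 988 members strength and width had a Spearman correlation of 0.516. This is a description over origins of 1 pooled list, in which strength is itself a count divided by width. A wider region also needs less precision to overlap another list, so width is part of what the rule selects.

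The share of fraction-supported origins that were S2-only was lower among stronger origins. In 5 groups of nearly equal size, called strength groups 1 to 5 and running from the weakest to the strongest, 54.7%, 51.7%, 50.8%, 44.1% and 32.9% were absent from Bg3. Group 1 had an interval of 49.9 to 59.6 and group 5 one of 28.5 to 37.6. By width, 56.9% of those under 500 bp were S2-only (52.0 to 61.7), and 29.7% of those from 1200 bp up (25.2 to 34.5). Origins of 3000 reads per kb or more made up 6.07% of the members (60 of 988) and 13.9% of shared origins (156 of 1121).

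**Figure D1:**
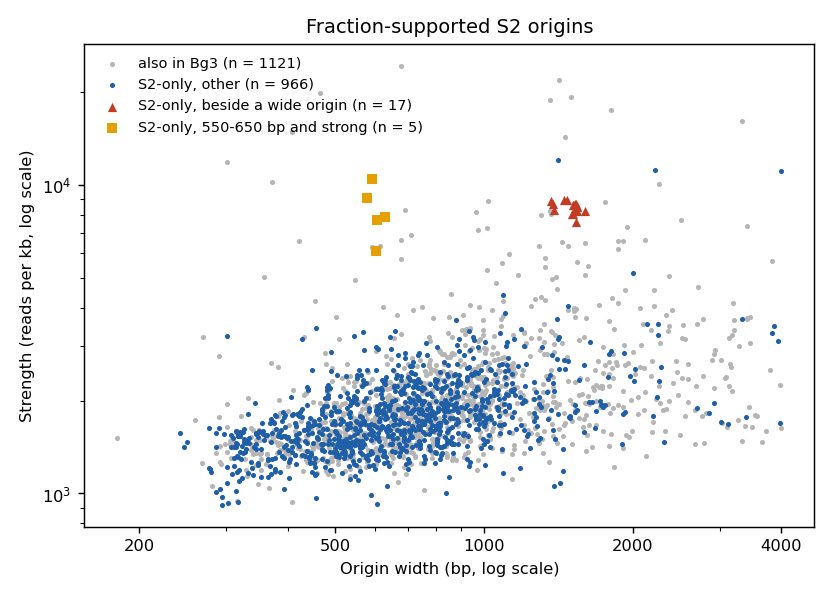
Strength in reads per kb against width in bp, both on log axes, for the 988 members and the 1121 shared origins, 1 point per S2 origin. Most members lie below 3000 reads per kb. A tight group of 17 (triangles) lies at 1366 to 1601 bp and 7552 to 8935 reads per kb, and 5 of about 600 bp (squares) lie at 6119 to 10463.

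The fractions that held the members were unevenly used. All 3 fractions held 516 members (52.2%, interval 49.1 to 55.4), against 23.3% of all S2 origins of the same arms and width, a comparison that the rule fixes. Fractions 5 and 6 without 4 held 371 (37.6%), fractions 4 and 5 without 6 held 82 (8.30%), and fractions 4 and 6 without 5 held 19 (1.92%). Fraction 5, the middle-sized strands, thus held 969 of the 988. Among all S2 origins of these arms and width, 32.0% were in fraction 4, 46.6% in fraction 5 and 38.1% in fraction 6, so fraction 4 held the fewest in any case.

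Members were missing from the short-strand fraction more often than shared origins. Fraction 4 lacked 371 of 988 members (37.6%, 34.5 to 40.7) and 217 of 1121 shared origins (19.4%, 17.1 to 21.8). The long-strand fraction ran the other way. The rule lets an origin lack at most 1 fraction, so the shares missing from the 3 fractions are not independent results. Fraction 6 lacked 82 members (8.30%, 6.66 to 10.2) and 173 shared origins (15.4%, 13.4 to 17.7). Fraction 5 lacked 1.92% of members (1.16 to 2.99) and 0.981% of shared origins (0.491 to 1.75), and these intervals overlap.

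Fraction 4 lacked a larger share of members than of shared origins in every strength group and width class. Members were also weaker and narrower, and the groups do not match the 2 parts. Within each strength group members had the smaller median width (519 against 535 bp in group 1, 987 against 1125 bp in group 5). The part that strength and width played in the contrast was not tested. In strength groups 1 to 5, fraction 4 lacked 49.4%, 47.2%, 38.8%, 26.9% and 15.1% of members, and 32.5%, 25.0%, 22.7%, 19.5% and 3.89% of shared origins. In group 4 the intervals overlapped (20.7 to 33.9 and 14.6 to 25.1), and in the others they did not. By width, fraction 4 lacked 46.4% of members and 29.2% of shared origins under 500 bp, 40.3% and 24.5% from 500 to 800 bp, 33.1% and 16.3% from 800 to 1200 bp, and 19.1% and 8.82% above. The intervals overlapped only in the widest class (12.4 to 27.5 and 5.74 to 12.8). On each arm the share of members missing from fraction 4 was between 33.9% (3R) and 45.5% (3L).

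For fraction 6 the share missing was lower for members in each of the 5 strength groups, but the intervals were separate only in the strongest. In group 1, fraction 6 lacked 11.7% of members (7.85 to 16.5) and 15.2% of shared origins (10.4 to 21.1), and in group 5 it lacked 2.88% (0.790 to 7.20) and 19.1% (14.7 to 24.2). The part that library depth played in these shares was not tested, since the fraction lists carry no reads.

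**Figure D2:**
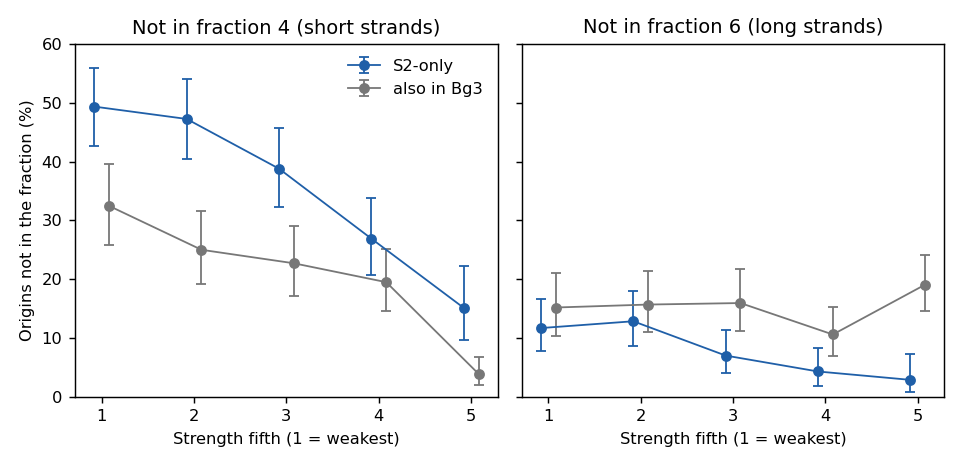
Percent of origins not in fraction 4 (left) and not in fraction 6 (right), by strength group (1 weakest, 5 strongest) of the 2109 fraction-supported S2 origins, for members (blue) and shared origins (grey). Bars are exact 95% binomial intervals. In every group the point for members is above that for shared origins on the left (49.4% against 32.5% in the weakest), and below it on the right (2.88% against 19.1% in the strongest).

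Members seen in all 3 fractions were the strongest and widest. Their median strength was 1902 reads per kb (1852 to 1956) and their median width 742 bp (712 to 777). Members in fractions 5 and 6 alone had medians of 1606 reads per kb (1562 to 1634) and 623 bp (586 to 659). Those in fractions 4 and 5 alone had 1554 (1481 to 1656) and 561.5 bp (511 to 690), and the 19 in fractions 4 and 6 alone had 1473 (1288 to 1766) and 553 bp (394 to 653). A wider origin overlaps a fraction region more easily, so these groups are not independent of width. The part that strength played in how many fractions held a member was not tested. In shared origins the pair of fractions 4 and 5 looked different, with 1888 reads per kb (1747 to 2025) and 872 bp (787 to 997), which is close to the medians of shared origins in all 3 fractions, 1970 and 848.5 bp. The median gap from a member to the nearest Bg3 origin was 6377 bp (5494 to 7037) for all 3 fractions, 6525 bp (5196 to 8087) for fractions 5 and 6, 7356 bp (3929 to 9353) for fractions 4 and 5, and 4877 bp (1057 to 9825) for fractions 4 and 6, and these intervals overlap.

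Each fraction held exactly 1 region at 456 members and 611 shared origins. All regions compared here overlap the same S2 origin (median width 715 bp at these members), so the selection itself limits how far apart their centres can lie. At these members the centres of the regions in fractions 5 and 6 lay a median of 37.5 bp apart (31 to 44.5), those of 4 and 5 lay 51.25 bp apart (40.5 to 61), and those of 4 and 6 lay 73.5 bp apart (56 to 84.5). Shared origins had 37 bp, 45 bp and 68.5 bp, with overlapping intervals. The offset of each fraction's centre from the S2 centre had an interval that included 0, and the intervals reached from -9.5 to 14.5 bp over the 3 fractions.

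Regions from short strands were somewhat narrower than those from long strands at the members. Median widths were 578.5 bp in fraction 4, 693.5 bp in fraction 5 and 680.5 bp in fraction 6. Within a member the median ratio of fraction 4 to fraction 6 was 0.925 (0.884 to 0.975), and fraction 4 was the narrower in 265 of 456 (58.1%, 53.4 to 62.7). At shared origins the ratio was 0.987 (0.951 to 1.01) and fraction 4 was the narrower in 52.2% (48.2 to 56.2). The intervals for members and for shared origins overlap in both measures. Single members varied widely. On 3L at 14260526 to 14261461, the fraction 4 region was 4052 bp wide against 488 bp in fraction 5 and 521 bp in fraction 6. On 2R at 6460277 to 6461211 it was 338 bp against 1293 and 1436 bp. The next largest ratios of fraction 4 to fraction 6 were 5.04 (3L at 1512140) and 4.31 (2R at 11229004), and the next smallest were 0.254 (3R at 5528885) and 0.273 (3R at 13840600).

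Members lay on all 4 arms. There were 264 on 2L (20.4% of its S2 origins, interval 18.3 to 22.7), 236 on 2R (18.4%, 16.3 to 20.7), 178 on 3L (15.5%, 13.4 to 17.7) and 310 on 3R (19.6%, 17.7 to 21.6). The interval of 2L did not overlap that of 3L. As a share of fraction-supported origins, members made up 50.3% on 2L (45.9 to 54.6), 42.7% on 2R (38.5 to 46.9), 43.5% on 3L (38.7 to 48.5) and 49.8% on 3R (45.8 to 53.8). Counted over whole arms, with no limit of position or width, the Bg3 list held 1761 origins on 3L, and 1328, 1464 and 1432 on 2L, 2R and 3R. Median strength ranged only from 1676 reads per kb on 3R to 1783 on 2L.

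The gaps from members to the nearest Bg3 origin were much like those of other S2-only origins. Members had a median gap of 6521 bp (5737 to 7188), with the middle 50% between 2304.5 and 14311 bp. Of the 988, 63 (6.38%) lay under 500 bp from a Bg3 origin, 358 (36.2%) from 500 bp to under 5000 bp, 409 (41.4%) from there to under 20000 bp, and 158 (16.0%) at 20000 bp or more. S2-only origins in no fraction had a median gap of 7259 bp (6753 to 7720) and those in 1 fraction 6444 bp (5436 to 7286), with intervals that overlap that of the members. Strength differed little with the gap, with overlapping intervals around medians of 1720, 1772, 1716 and 1690 reads per kb in the 4 gap classes from the nearest to the farthest. The share missing from fraction 4 was 38.1%, 38.5%, 35.5% and 40.5% in the same classes.

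**Figure D3:**
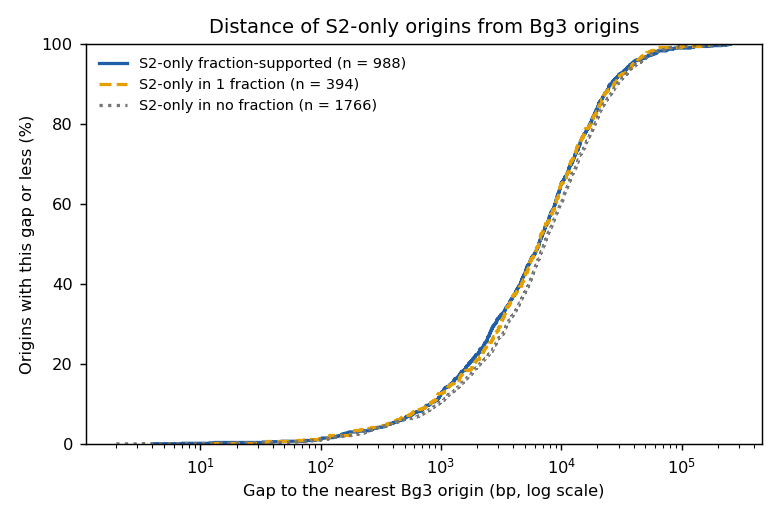
Cumulative percent of origins by the gap to the nearest Bg3 origin in bp, on a log axis, for 988 members, 394 S2-only origins in 1 fraction and 1766 in no fraction. The 3 curves lie close together, with medians of 6521, 6444 and 7259 bp.

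A few members missed Bg3 by bases. The nearest ones were on 3L at 13157279 to 13157699 (4 bp), 3L at 21915971 to 21916507 (7 bp), 3R at 25480330 to 25480786 (12 bp), 3L at 12558583 to 12559020 (13 bp) and 3R at 9289418 to 9289828 (33 bp). Their strengths ran from 965 to 1991 reads per kb. On the other side of the rule, the shared origins with the least overlap shared 5 bases (2L at 1605713), 13 bases (2L at 9879264) and 14 bases (3R at 21077071) with Bg3. Shared origins in general had a median of 65.6% of their width covered by Bg3 regions (63.7 to 68.2), and 16 of the 1121 shared under 100 bases. At 30 members (3.04%, 2.06 to 4.31) a fraction region that overlapped the member also reached a Bg3 region, and at 10 all of the supporting regions did. The nearest S2 origin was within 500 bp and found in Bg3 for 40 members (4.05%, 2.91 to 5.47), against 5.95% of all S2 origins of these arms and width.

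Fewer Bg3 origins lay around the members than around shared origins, a contrast that the rule sets in part. It chose members for overlapping no Bg3 origin and shared origins for overlapping at least 1. Within 50 kb on either side of the centre there was a median of 5 Bg3 origins (5 to 6) for members and 7 (interval 7 to 7) for shared ones. For each shared origin 1 Bg3 origin was taken away, however many overlapped it. S2-only origins in no fraction had 5 (5 to 5). Other S2 origins within the same distance numbered 6 (6 to 7) for members and 7 (6 to 7) for shared origins. No Bg3 origin lay within 50 kb at 35 of 988 members, 9 of 394 S2-only origins in 1 fraction and 64 of 1766 in no fraction. For shared origins, with 1 origin taken away, the count was 15 of 1121. Another member lay within 5 kb of 155 members (15.7%, 13.5 to 18.1), and the same was true of 176 of 1121 shared origins among themselves (15.7%, 13.6 to 18.0).

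The 5 members farthest from any Bg3 origin all lay in one stretch of 2L. From 8684291 to 9219957, over 535667 bp, the Bg3 list held no origin. It was the longest such stretch on the 4 arms, and the next, on 3L from 6265276 to 6544972, measured 279697 bp and held 6 members. In the 2L stretch the S2 list held 37 origins, of which 14 were members, 2 were in 1 fraction and 21 in none, and fractions 4, 5 and 6 held 23, 34 and 32 regions. All 5 lists had origins on both sides. The 500000 bp before it held 51 S2 and 32 Bg3 origins, and the 500000 bp after it held 22 and 21.

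The 14 members in that stretch were ordinary in strength. They ran from 1103 to 3642 reads per kb, with a median of 1957 (1389 to 2657), and from 393 to 1208 bp in width. Of them, 7 were in all 3 fractions and 6 lacked fraction 4. The strongest, at 8853296 to 8854172, held 3194 reads at 3642 reads per kb and was in all 3 fractions. The farthest from Bg3, at 8962742 to 8963326, lay 256631 bp from the nearest Bg3 origin and had 1846 reads per kb (1738 to 1960), with regions of 862 bp in fraction 5 and 1858 bp in fraction 6 and none in fraction 4. Next came the members at 8976520 (242609 bp away, 2657 reads per kb), 8986160 (233405 bp, 1300), 8898852 (214561 bp, 2145) and 8865020 (180729 bp, 2146).

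**Figure D4:**
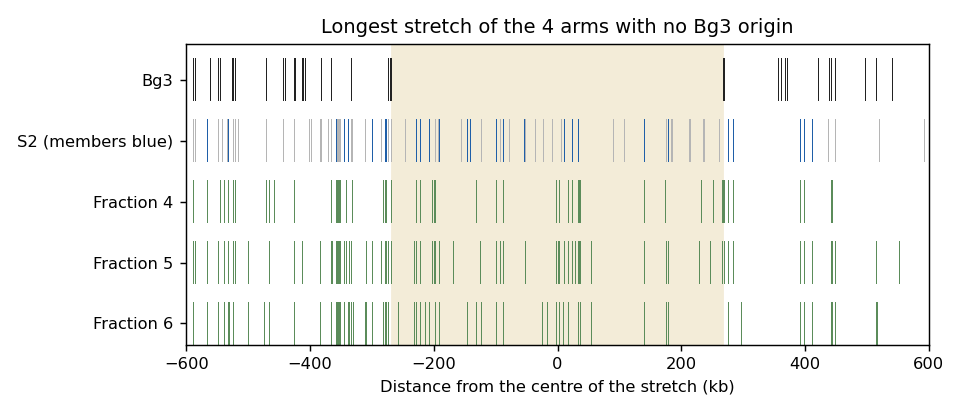
Regions of the 5 lists over 600 kb on either side of the centre of the longest stretch with no Bg3 origin (shaded), with position as distance in kb. Each region is drawn at least 1.5 kb wide, and members are blue among the other S2 origins (grey). The shaded part holds 37 S2 origins, 14 of them members, and no Bg3 origin, while all 5 lists have origins outside it.

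In all, 72 stretches of 100000 bp or more without a Bg3 origin were found on the 4 arms. They held 93 members (9.41%, 7.66 to 11.4), and 31 of them held no member. Of all 3148 S2-only origins of these arms and width, 319 (10.1%) lay in such stretches, a share close to that of the members. The 500000 bp windows with most members were 2L from 1000001 and 2L from 8500001, with 17 each, 3R from 13500001 with 14, 3L from 7500001 with 13 and 2R from 9500001 with 12. Bg3 origins in the same windows numbered 18, 13, 23, 26 and 39, in that order. The window on 2R thus had many Bg3 origins beside its members. At 100000 bp, 4 windows had 6 members each, 3 on 2L (from 7900001, 16500001 and 20400001) and 1 on 3R (from 17600001), with 8, 4, 9 and 5 Bg3 origins. In the window on 3R the 6 members made up all but 1 of its 7 S2 origins, and the remaining origin was a shared one.

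The strongest member of all was on 3L at 7370371 to 7371782, with 16945 reads and 12001 reads per kb (11821 to 12183). It was followed by 3R at 3917624 to 3919843 (11136 reads per kb), 3R at 4694463 to 4698445 (11059) and 2R at 19765213 to 19765806 (10463). The last is the strongest on its arm, as 2R at 6867133 to 6867711 (9067) comes next there. All 10 of the strongest members were in all 3 fractions, and together they held 9.18% of the reads of the members.

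The next 5 members by strength were all of nearly one size. They were on 2L at 2570243 (1449 bp, 8935 reads per kb), 2L at 19153034 (1474 bp, 8917), 3L at 7786777 (1366 bp, 8835), 2L at 10882177 (1533 bp, 8686) and 2L at 2777745 (1531 bp, 8685). Each lay within 500 bp of an S2 origin of 4000 bp or more. The group was then taken, after these values were seen, as members of 1300 to 1700 bp with at least 7000 reads per kb that have such a wide S2 origin within 500 bp. It held 17 members. Only 0.678% of all S2 origins of these arms and width had a wide origin that close as their nearest S2 origin, and the 17 were the only members that did (1.72%). An origin with a narrower S2 origin still nearer was not counted there.

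The 17 pairs had nearly the same layout at 17 places. The members' widths ran from 1366 to 1601 bp (median 1527) and their strengths from 7552 to 8935 reads per kb (median 8548). The gap to the wide origin had a median of 300 bp (286 to 348), the wide origin a median width of 5380 bp (5335 to 5397) and a median strength of 12903 reads per kb (12475 to 13323). From end to end the pairs spanned a median of 7177 bp (7113 to 7213), between 6001 and 7745 bp. The member was weaker than its wide partner in all pairs but the one on 3L at 1512140, with a median ratio of 0.657 (0.621 to 0.692). At that pair the 2 origins lay 10 bp apart, the wide one had only 7909 reads per kb, and the regions of fractions 4 (7809 bp) and 5 (6580 bp) ran across into it.

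The wide origin came before the member along the chromosome in 11 pairs and after it in 6, so the layout occurred in both orders. There were 8 pairs on 2L and 3 on each of 2R, 3L and 3R. All 17 members and all 17 wide origins were in all 3 fractions. Of the wide origins, 12 were absent from Bg3 and 5 overlapped a Bg3 origin. Among all 134 fraction-supported S2 origins of 4000 bp or more on the 4 arms, 23 (17.2%) were absent from Bg3, and these 12 are among them. The member nearest to Bg3 was on 2R at 10978077, 92 bp away, and the farthest was on 2L at 2570243, 64031 bp away. Fraction regions at these members had median widths of 1567, 1521 and 1426 bp in fractions 4, 5 and 6.

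**Figure D5:**
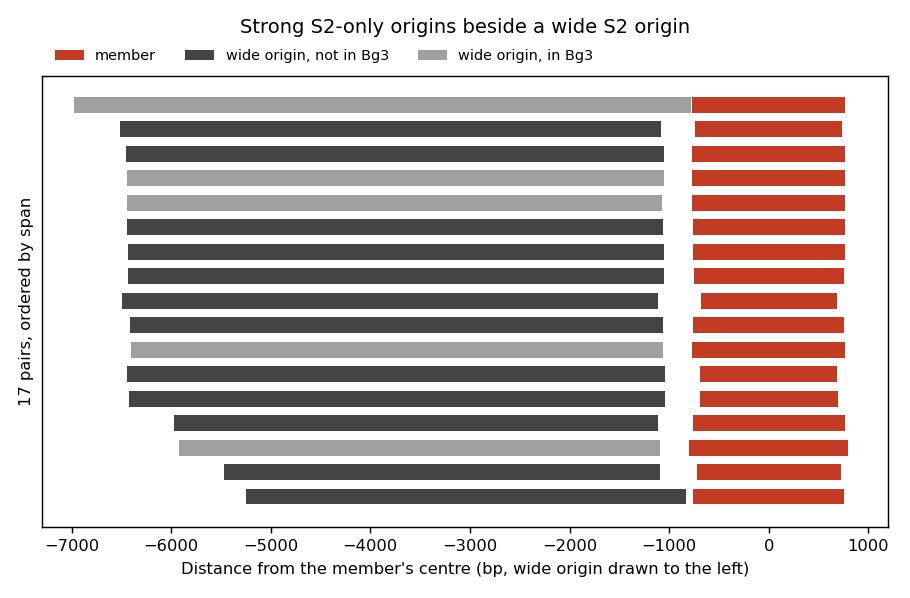
The 17 pairs of a strong member (red) and a wide S2 origin, drawn to scale in bp from the member's centre, turned so that the wide origin lies to the left, and ordered by span. Dark bars are wide origins absent from Bg3 (12) and light bars are wide origins found in Bg3 (5). Most pairs show the same gap of about 300 bp and the same wide width of about 5380 bp.

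These 17 members made up 1.72% of the members but held 12.2% of their 1764800 reads. Without them, 43 of 971 members (4.43%) reached 3000 reads per kb. The size and strength were not particular to origins absent from Bg3. Of 27 S2 origins of the same arms with that width and at least that strength, 8 overlapped a Bg3 origin, and 20 had a wide origin within 500 bp. One of the 8, on 3L at 7372100 (8704 reads per kb), lay 317 bp from the strongest member and shared 21 bases with Bg3. Wide S2 origins with widths from 4300 to 5500 bp whose strength lay between 12000 and 15000 reads per kb numbered 24 on all sequences. On these arms there were 17 of them, and 16 had one of the 17 members beside them. This range closely encloses the values of the wide origins in 16 of the pairs themselves. The match is therefore in part set by the range and is no separate test of the pairing. Whether the 17 places share a sequence was not tested.

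A second group was short. Among 147 members of 550 to 650 bp, whose median was 1681 reads per kb, 5 had at least 6000, and the next had 3331. They were on 2R at 19765213 (594 bp, 10463 reads per kb), 2R at 6867133 (579 bp, 9067), 2R at 13685857 (630 bp, 7852), 3L at 6328067 (608 bp, 7704) and 3R at 11451419 (603 bp, 6119). In each of them the fraction regions measured 546 to 645 bp, and all 3 fractions held it. Gaps to the nearest S2 origin were 5024, 147, 5165, 11254 and 3160 bp. Of all 7 S2 origins in that range of width and strength, 2 overlapped Bg3 origins. The range was chosen after the values were seen.

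At the edges of the width rule, the widest members were on 3R at 4694463 to 4698445 (3983 bp, 11059 reads per kb) and 2L at 20451486 to 20455466 (3981 bp, 1692 reads per kb). The next 3 were on 2L at 8672792 (3938 bp, 3120), 2R at 14375297 (3862 bp, 3478) and 2L at 11713483 (3834 bp, 3313). Just over the limit, 2L at 1220119 to 1224240 (4122 bp) and 2L at 13560970 to 13565187 (4218 bp) had 3528 and 1566 reads per kb, and both were in all 3 fractions. The narrowest member, on 2L at 84713 to 84954, was 242 bp wide with 379 reads (1566 reads per kb, 1412 to 1732). The other 4 narrowest, on 3R at 13720796, 3L at 8858341, 2L at 4981896 and 3L at 16487328, measured 247, 250, 277 and 278 bp. Their strengths of 1409, 1472, 1632 and 1209 reads per kb lay below the median of the members.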

How the data were processed

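Per the submitters' processing notes, Bowtie2 2.2.0, SAMtools 0.1.19 and MACS 1.4.1 were used with genome build dm3. Settings, thresholds and pooling steps were not given in the sources used here. The deposited lists give positions, and for S2 and Bg3 also an efficiency, a signal per kb of the origin. Bg3 efficiency is on another scale and was not used.

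Coordinates are printed as deposited. Overlaps, gaps and intervals were computed with Python 3.11.15, pandas 2.3.3, numpy 2.4.6 and scipy 1.17.1, tested on simulated data and checked against bedtools. The members and the lists of alternatives were chosen with earlier results of these data known, and the paired and short strong groups and the longest stretch were singled out after their values were seen. Named origins were the 10 strongest members and the strongest of each arm, the 5 nearest to and farthest from Bg3, the 5 widest and narrowest, the 3 with the largest and smallest width ratio of fraction 4 to 6, 2 on each side of the width limit, and the fullest windows (3 of 100 kb, with ties, and 5 of 500 kb). No genome of the build was used, so gene positions, base composition and sequences were not analysed here.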

Additional observations from a re-analysis of the deposited data

How the results depend on the processing

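In all, 13 results (the number of members, their shares, strength, width, gap, neighbours and region shape, and the share not in fraction 4) were recomputed under alternatives to the overlap rule, number of fractions, width limit, sequences, merging and arms. Of 188 recomputed values of the main results, 147 stayed within the interval of the reported value (for the number of members, within 1.5 times) and 41 did not. Asking for overlap of at least 50% of the S2 origin raised the S2-only share of fraction-supported origins from 46.8% to 63.4%, the median strength to 1799 and its ratio to constitutive origins (in Bg3 and all 3 fractions) from 0.873 to 0.939, and lowered the median gap to Bg3 to 3091 bp. This setting tightens overlap with Bg3 and with the fractions together (1737 in place of 2109 origins were then fraction-supported), and which of them moved the values was not tested. Asking for no Bg3 region within 500 bp gave a share of 43.9%. Asking for all 3 fractions left 516 members, a share of 41.7%, a median strength of 1902, ratios of 0.965 to constitutive and 1.35 to pooled-only origins (S2-only and in no fraction; 1.22 as reported), a width of 742 bp and 8.72% with a member within 5 kb. With fraction 5 left out and both others required there were 535 members, a share of 42.3%, a median strength of 1885, ratios of 0.957 and 1.34, a width of 736 bp, 96.4% in all 3 fractions and 9.16% with a member within 5 kb. With fraction 6 left out these were 598, 40.1%, 1845, 0.936, 1.31, 726 bp, 86.3% and 10.5%. With fraction 4 left out, 58.2% were in all 3 fractions. With no width limit the ratio to constitutive origins was 0.832 and the share with a member within 5 kb was 18.3%. On all sequences the S2-only share was 41.9% and the width ratio of fraction 4 to fraction 6 was 0.976. Merging regions within 1 kb gave a median strength of 1682, a width of 722 bp, 10.3% with a member within 5 kb, a width ratio of 0.850 and centres of fractions 4 and 6 that lay 99.5 bp apart. Leaving out arm 3R gave a median gap of 5715 bp. The interval of the ratio to constitutive origins was 0.833 to 0.917 as reported, and it included 1 with 50% overlap (0.879 to 1.01), all 3 fractions (0.915 to 1.01) and fraction 5 left out (0.909 to 1.00). A neighbour within 2 kb or 10 kb was found for 8.50% and 27.9%. The cause of these shifts was not tested. The fraction 6 contrast, the strength and width classes, the gap classes, the counts within 50 kb and the stretches were not recomputed under alternatives.

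The share of members not in fraction 4 stayed between 35.8% and 39.2% in 13 settings that allow it to vary, and was above that of shared origins (16.9% to 20.6%) in all 13. These include leaving out, as chosen after seeing the data, the 17 paired members, the 2L stretch and members whose fraction regions reach Bg3. No paired analysis was possible because each list combines replicates, and for the same reason no replicate could be left out. The alternatives planned for transcription starts and base composition were not run, since no genome of the build was used. The member with the fewest reads held 271. The fraction lists give no reads, so the part of depth in being missing from one was not tested.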

Other observations

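The same selection applied outside the rule gave these values. On the X, 144 of 261 fraction-supported S2 origins narrower than 4000 bp were absent from Bg3 (55.2%, interval 48.9 to 61.3), with a median strength of 1677 reads per kb, and fraction 4 lacked 65 of the 144 (45.1%, 36.8 to 53.6). On chromosome 4, 2 of 24 were absent from Bg3 (8.33%, 1.03 to 27.0). On the stretches left out of 2L and 3L the counts were 37 of 83 (44.6%) and 20 of 89 (22.5%), and fraction 4 lacked 9 and 4 of these S2-only origins. On heterochromatic scaffolds 93 of 501 were absent from Bg3 (18.6%, 15.3 to 22.2), with a median strength of 1851 reads per kb, and fraction 4 lacked 21. Among S2 origins of 4000 bp or more on the 4 arms, 23 of 134 fraction-supported ones were absent from Bg3 (17.2%, 11.2 to 24.6). Their median strength was 12475 reads per kb, and fraction 4 held all 23. Of these 23, 12 were the wide origins absent from Bg3 in the 17 pairs described above.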
